A study of Mus musculus with 3 samples.

Results

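The ephrin-B ligands (Efnb1, Efnb2 and Efnb3) and the EphB receptors (Ephb1, Ephb2, Ephb3, Ephb4 and Ephb6) were followed in the genital tubercle, the embryonic bud that gives rise to the penis or the clitoris. Members were taken from the deposited intensity table of 3 samples as every probe set annotated to exactly 1 gene symbol of this list of 8. That gave 12 probe sets of 7 genes, out of 34945 probe sets and 18193 genes with 1 symbol, and Ephb2 was not analysed here. Efnb2 had 4 probe sets and Efnb1 had 3, and each other measured member had 1.

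The samples form 1 group of 3 mouse embryos at embryonic day 14 (Theiler stage 22), each hybridised to its own array. Every embryo came from an FVB/N female mated to a male carrying the SMAA/EYFP transgene, a yellow fluorescent reporter of smooth muscle actin (Acta2), and all are labelled male. There was no treatment, mutant or control sample, and the tubercle was dissected by reporter fluorescence without pooling. The 1 label that differs is the landmark of limb development, which is indented footplate borders in replicates 1 and 2 and visible fingers in replicate 3. The labels do not say whether the embryos shared a litter, so the spread between samples mixes animals with dissection, RNA amplification and hybridisation.

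Ephrins and Eph receptors are both held in the cell membrane, so they signal where cells touch. Binding starts forward signalling through the receptor's tyrosine kinase, and B-class ephrins, which span the membrane, also signal in reverse through their own cytoplasmic tail. The outcome is often repulsion and a boundary between cell populations, and in other settings adhesion. In mice, loss of reverse signalling by ephrin-B2, or of EphB2 together with EphB3, disturbs division of the cloaca and midline closure of the urethra, the defect known as hypospadias.

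Sequence could be shown for the promoter windows of 7 of the 8 genes (RefSeq, GRCm38.p6, 250 bases before to 50 after an annotated start), with Ephb2 among them and Efnb3 not. The promoters of Efnb2 and Ephb6 are printed because Efnb2 is the ligand tied to urethral closure and Ephb6 is the receptor whose samples lay farthest apart, a choice made with the values known. Efnb2 is at chr8:8661193-8661492 on the minus strand and Ephb6 at chr6:41605261-41605560 on the plus strand. Both run 5′ to 3′, and capitals mark the GC box GGGCGG or its reverse complement CCGCCC.
Efnb2: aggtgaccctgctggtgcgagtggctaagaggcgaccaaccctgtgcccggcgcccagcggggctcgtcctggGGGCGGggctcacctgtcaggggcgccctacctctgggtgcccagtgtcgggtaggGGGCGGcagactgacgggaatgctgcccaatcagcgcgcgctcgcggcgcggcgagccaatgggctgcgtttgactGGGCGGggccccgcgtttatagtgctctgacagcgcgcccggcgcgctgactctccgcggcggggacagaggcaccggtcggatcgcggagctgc
Ephb6: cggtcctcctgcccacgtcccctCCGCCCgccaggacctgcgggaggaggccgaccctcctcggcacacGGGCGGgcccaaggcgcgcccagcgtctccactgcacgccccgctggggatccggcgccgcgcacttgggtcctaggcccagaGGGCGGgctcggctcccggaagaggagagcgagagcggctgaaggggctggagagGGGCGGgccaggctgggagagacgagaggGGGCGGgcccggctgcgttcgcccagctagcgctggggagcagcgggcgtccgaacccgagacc

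The Efnb2 window held 3 GC boxes and the Ephb6 window 5. A GC box was found in 4 of the 7 member promoters and in 35.7% of all 32851 promoter windows of the same length. The TATA box TATAAA, or its reverse complement TTTATA, was found in 1 of the 7, that of Efnb2, and in 13.6% of all windows. CpG dinucleotides numbered 35 in the Efnb2 window and 34 in that of Ephb6, against a median of 7 over all windows, and 7 of 7 member promoters lay above that median. These are counts of letters in a window and no measure of binding or activity in these samples.

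An intensity was called above background when it exceeded the 95th percentile of 83 probe sets for olfactory, vomeronasal and bitter taste receptors on the same array. That background was 134.8, 251.3 and 197.3 in replicates 1, 2 and 3. Of the tubercle markers, which include Shh, Hoxd13 and Isl1, 12 of 13 were above background in 3 of 3 samples. Replicate 3 went against its sex label. Xist, the RNA of the inactive X chromosome, read 61883 there and 8.05 and 118.3 in replicates 1 and 2, while the Y-linked genes Eif2s3y, Kdm5d and Uty exceeded background in the first pair of samples and in none of their brightest probe sets in replicate 3. Markers of liver, skeletal muscle and erythroid cells were brightest in replicate 1. The summed signal over 7 liver genes (4 above background in 3 of 3 samples) was 113802 there, against 52303 and 9261 in replicates 2 and 3. Over 8 skeletal muscle genes (4 above background in 3 of 3) it was 24979, against 6942 and 2797, and over 5 erythroid genes (3 above background in 3 of 3) 23125, against 8969 and 2940. The 3′ to 5′ signal ratio of the Actb control probe sets, which rises as RNA or its copies get shorter, was 7.38, 2.21 and 4.42 in replicates 1, 2 and 3, and that of Gapdh 21.5, 14.9 and 14.1.

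Every measured ephrin-B and EphB gene gave a signal above background in the tubercle. On its brightest probe set this held for 7 of 7 genes in 3 of 3 samples (3 ligands and 4 receptors), beside 60.6% of all genes measured. By probe set it held for 10 of 12, beside 48.1% of all probe sets. Without replicate 3 the counts were 7 genes and 10 probe sets, beside 62.3% and 50.0%. Leaving out a sample only eases the rule, so these counts could not fall. With background at the 99th percentile the gene count became 6, since Ephb6 was then above background in 2 samples. Signals of different probe sets depend on their probes, so the members were not ranked by level. In whole tissue a lower signal from fewer cells of a type and from less RNA per cell cannot be told apart.

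**Figure D1:**
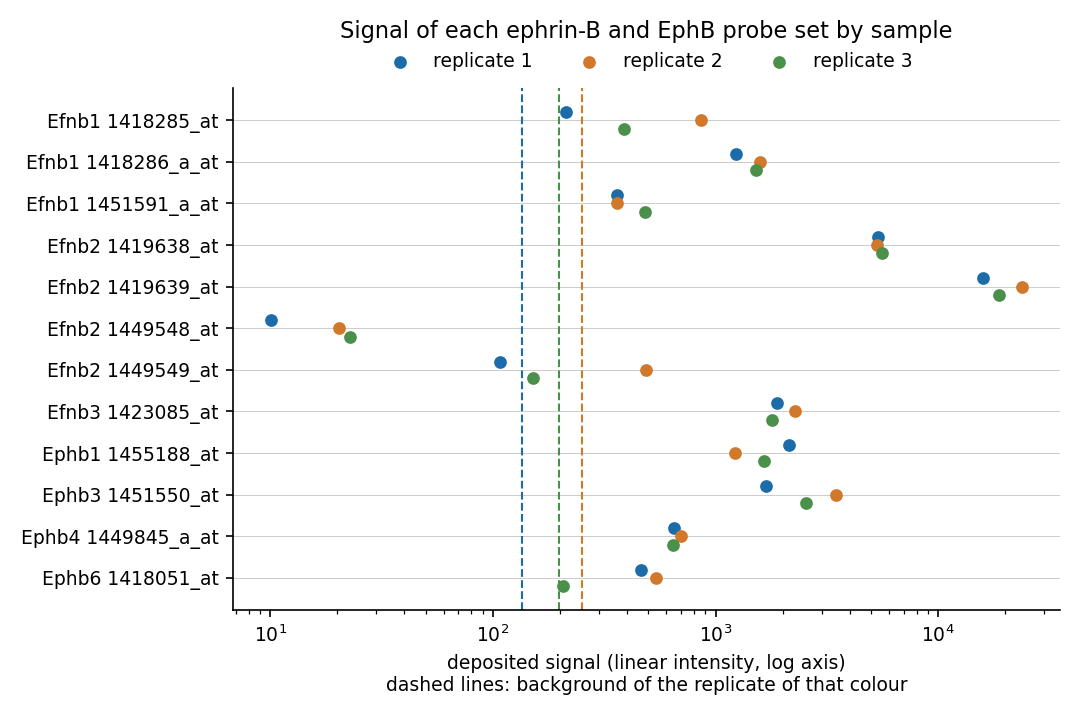
Deposited signal (linear intensity, log axis) of the 12 member probe sets, with 1 point for each of the 3 samples and dashed lines at the background of each sample. Points of 10 probe sets lie to the right of the line of their own colour in 3 of 3 samples, whereas Efnb2 1449548_at lies left of it throughout and Efnb2 1449549_at lies right of it in replicate 2 alone.

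Efnb2 encodes ephrin-B2, the ligand best known for marking arteries and for reverse signalling in urorectal development. Its brightest probe set, 1419639_at, read 15986, 23857 and 18783 in replicates 1, 2 and 3. Each value was at least 94.9 times the background of its array. A second probe set, 1419638_at, read 5394, 5318 and 5597, a mean of 5436 ± 145 (SD, n = 3). Both were steady on this scaling, with an SD of 0.18 and 0.13 on the log2 scale after the samples were aligned, against a median of 0.36 over all probe sets above background in 3 of 3 samples. In replicates 1 and 2 alone these SDs were 0.25 and 0.18 (n = 2). The SD of 1419639_at was 0.09 with alignment on all probe sets and 0.37 with quantile normalization. On 1419638_at, replicate 2 minus replicate 1 was -0.25 on the main alignment. It was -0.72 with alignment on all probe sets and 0.07 with quantile normalization. The steadiness of both probe sets therefore depended on the scaling.

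The remaining Efnb2 probe sets, annotated to the same transcript accession, did not share that result. Probe set 1449548_at read 10.1, 20.5 and 22.8 and was above background in 0 of 3 samples. Probe set 1449549_at read 108, 485 and 152 and passed background only in replicate 2. There it was at least 3.07-fold over replicate 1, and over replicate 3 the ratio was at least 2.23-fold. Statements on Efnb2 therefore rest on 2 of its 4 probe sets. On 1449549_at the highest sample was the one with the lowest Actb 3′ to 5′ ratio, 2.21 in replicate 2. The Gapdh ratio was lowest in replicate 3 instead, at 14.1 against 14.9 in replicate 2. The part of these ratios in the difference was not tested.

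Efnb1 encodes ephrin-B1, whose gene lies on the X chromosome and whose loss disturbs craniofacial and skeletal midline development. On its brightest probe set, 1418286_a_at, it read 1233, 1586 and 1521, a mean of 1447 ± 188 (SD, n = 3). The samples lay close together there, with a log2 SD of 0.11, and of 0.10 without replicate 3. The mean of replicates 1 and 2 was 1410 ± 249 (SD, n = 2), and replicate 3, with its high Xist signal, was 1.16-fold over replicate 1 and 1.06-fold over replicate 2.

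The other Efnb1 probe sets ordered the samples differently. Probe set 1451591_a_at read 361, 360 and 482, and replicate 3 was the highest, at 1.48-fold over replicate 2. Probe set 1418285_at read 212, 859 and 387, and replicate 2 was 3.45-fold over replicate 1. That last difference was over 2-fold under each of the 4 other scalings and floors tried, with log2 differences from 1.31 to 2.02, yet it was not seen on the other Efnb1 probe sets, at 0.13 and -0.23. On 1418285_at, too, the samples stood in the reverse order of their Actb 3′ to 5′ ratios (7.38, 2.21 and 4.42). The Gapdh ratios (21.5, 14.9 and 14.1) had a different order, with replicate 3 the lowest. The part of these ratios was not tested.

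Efnb3 encodes ephrin-B3, known as a midline barrier to growing axons in the spinal cord. It read 1882, 2276 and 1797 on its only probe set, a mean of 1985 ± 255 (SD, n = 3). Replicates 1 and 2 differed by 0.05 on the aligned log2 scale, and replicate 3 lay 0.18 below their mean. The log2 SD was 0.11, and on the brightest probe set of each gene the 3 ligands had SDs from 0.11 to 0.18, beside a median of 0.33 over all genes above background in 3 of 3 samples.

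Ephb3 encodes a receptor that acts with EphB2 in urorectal and palate development and in sorting intestinal crypt cells. It read 1687, 3487 and 2545, a mean of 2573 ± 900.4 (SD, n = 3). Replicate 2 was the highest, at 1.76-fold over replicate 1, and replicate 3 lay between them. The difference of replicates 1 and 2 was 0.82 on the aligned log2 scale and from 0.34 to 1.05 under the other scalings. Replicate 1, the lowest here, had the highest Actb and Gapdh 3′ to 5′ ratios (7.38 and 21.5), whose part was not tested.

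Ephb1 encodes a receptor best known for sending retinal axons to the same side of the brain. It read 2140, 1227 and 1643, a mean of 1670 ± 457 (SD, n = 3). Its samples stood in the order opposite to that of Ephb3, with replicate 1 highest and replicate 2 lowest, at 0.49 of replicate 1. This was -1.03 on the aligned log2 scale, just past 2-fold, and -0.80 with the intensities as deposited, -1.51 with alignment on all probe sets and -1.02 with quantile normalization. The Actb 3′ to 5′ ratio ran in the same order as Ephb1 (7.38, 2.21 and 4.42). The Gapdh ratio (21.5, 14.9 and 14.1) was highest in replicate 1 too, but lowest in replicate 3. The summed signal of nerve and glia markers shared the order of Ephb1, at 12336, 8771 and 9480. Of these markers 5 of 8 were above background in 3 of 3 samples. Erbb3 alone gave 9777, 5572 and 6116 of the nerve and glia sum. Most other genes of that list stood differently, some with values below background. Nefl, Elavl4, Tubb3, Elavl3 and Sox10 were lowest in replicate 1, Nefm was lowest in replicate 2, and Stmn2 was highest in replicate 1. Over the list, the median log2 difference of replicate 1 from the mean of the others was -0.28. Liver, skeletal muscle and erythroid sums were highest in replicate 1, as the nerve and glia sum was, but lowest in replicate 3. The part of none of these was tested.

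Ephb4 encodes the receptor that marks veins and pairs with ephrin-B2 where arteries and veins meet. It read 651, 699 and 643, a mean of 664 ± 30.3 (SD, n = 3). Its log2 SD was 0.07, and 0.09 in replicates 1 and 2. With no alignment it was 0.06, and with alignment on all probe sets or quantile normalization 0.31 and 0.19. Endothelial markers were present beside it, with 8 of 10 above background in 3 of 3 samples and summed signals of 13298, 13673 and 16533. Venous markers (4 of 4 above background in 3 of 3 samples) had summed signals of 39029, 25563 and 44191, of which Aplnr alone gave 29685, 17005 and 33523. Arterial markers had 6 of 8 above background in 3 of 3 samples, with sums of 22487, 24045 and 25192. Genes within these lists did not share 1 order. Of the arterial genes, Hey1 read 9130, 5009 and 3304, and Nrp1 read 5267, 7440 and 11772. Of the endothelial genes, Cdh5 read 2912, 1553 and 1692, and Kdr read 1100, 2947 and 2569. The sums therefore do not stand for each gene.

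Ephb6 encodes a receptor whose kinase domain lacks catalytic activity and which signals through partners such as other EphB receptors. It read 465, 543 and 207, and was 1.05 times background in replicate 3. Replicates 1 and 2 differed by 0.004 on the aligned log2 scale, whereas replicate 3 was at 0.42 of each. The log2 SD of 0.73 was thus 0.003 without replicate 3, the library that went against its sex label. That closeness belonged to the main alignment, since replicate 2 minus replicate 1 was 0.22 with no alignment, -0.48 with alignment on all probe sets and -0.34 with quantile normalization. Replicate 3 was the lowest under each of these scalings. In that library the summed signals of epithelial markers (10 of 10 above background in 3 of 3 samples) and of smooth muscle markers (3 of 8) were also lowest, at 94977 against 126984 and 109380 in replicates 1 and 2, and at 3323 against 6597 and 4076. Not every gene followed its sum, since Trp63, Perp, Epcam and Foxa1 were lowest in replicate 2, and Acta2 alone gave 5273 of the smooth muscle sum in replicate 1. Cnn1 and Lmod1 of the smooth muscle list were below background throughout. The liver (9261), skeletal muscle (2797) and erythroid (2940) sums were likewise lowest in replicate 3, by larger ratios. The part of these lists in the Ephb6 difference was not tested.

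**Figure D2:**
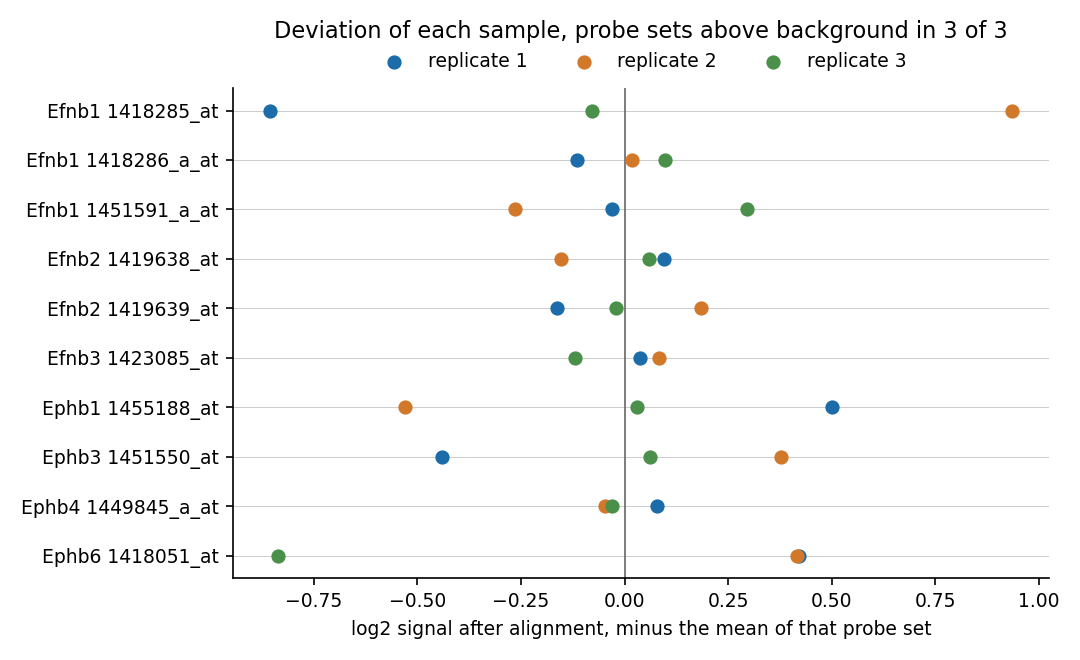
Aligned log2 signal of each sample minus the mean of that probe set, for the 10 member probe sets above background in 3 of 3 samples, with 1 point for each replicate. On this alignment Ephb4 and the brightest probe sets of Efnb1 and Efnb3 lie close to 0, Ephb1 and Ephb3 spread in opposite orders, and in Ephb6 replicate 3 lies apart from the other replicates, which overlap.

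Between any pair of samples few member probe sets were over 2-fold apart. Of the 10 above background in both samples, 2 were over 2-fold between replicates 2 and 1 (Efnb1 1418285_at higher and Ephb1 lower in replicate 2), beside 20.4% of all probe sets. Between replicates 3 and 1 it was 1, Ephb6, beside 13.6%. Between replicates 3 and 2 it was 2, Ephb6 and Efnb1 1418285_at, both lower in replicate 3, beside 10.5%. With so few members these counts do not set the family apart from all probe sets. Over the 7 genes the median log2 SD was 0.18, beside 0.33 over all genes above background in 3 of 3 samples, and 4 of the 7 (the 3 ligands and Ephb4) lay below the latter. These medians depended on the scaling. They were 0.29 for members and 0.29 for all genes with no alignment, 0.26 and 0.49 with alignment on all probe sets, and 0.37 and 0.30 with quantile normalization, where Efnb2 moved above the median. Ephb3 lay below it with alignment on all probe sets. On the brightest probe set of each gene, Efnb1, Efnb3 and Ephb4 lay below the median of all genes under each of these scalings. Ephb1 and Ephb6 lay above it. The result for Efnb1 did not hold for every probe set, since 1418285_at had an SD of 0.90 on the main alignment. By probe set the member median was 0.23 on that alignment, beside 0.36 over all probe sets, and 6 of the 10 lay below the latter.

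Replicate 3, the embryo with visible fingers, was compared with the mean of the other embryos by limma, which left 1 residual degree of freedom. None of the 11 member probe sets fitted passed a Benjamini-Hochberg adjusted p under 0.05, and 0 had an unadjusted p under 0.05, beside 0% and 2.10% of the 29121 probe sets fitted. Ephb6 was lower by 1.26 ± 0.60 on the log2 scale (difference ± SE; limma, unadjusted p = 0.105, adjusted p = 1.00, from 0.999877 to 0.999998 over all members and settings tried). Efnb1 1451591_a_at was at 0.44 ± 0.61, Efnb3 at -0.18 ± 0.60, Efnb2 1419639_at at -0.03 ± 0.62 and Ephb3 at 0.09 ± 0.70. These SEs start from the spread of replicates 1 and 2, which limma draws towards a common value over all probe sets fitted. Replicate 3 adds no spread of its own. Ephb6 and Efnb3, with log2 SDs of 0.003 and 0.03 in replicates 1 and 2, both had an SE of 0.60. The SEs are therefore no measure of the spread of a single probe set, and they changed with the settings. In this design the landmark, the sex signals and any other feature of replicate 3 cannot be told apart.

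A-class ephrins are held by a lipid anchor and bind mainly EphA receptors. In this and the following lists each gene was read on its brightest probe set, and others may differ. All 5 ephrin-A ligands were above background in 3 of 3 samples, with a median log2 SD of 0.37. Efna1 was the steadiest (SD 0.14), with signals of 930, 967 and 820. Efna4 varied most (SD 0.55) and was lowest in replicate 2, at 671, 399 and 691. Efna5, which can also activate EphB2, read 2589, 4710 and 4350, with replicate 1 the lowest.

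Of the 9 EphA receptors, 6 were above background in 3 of 3 samples. Epha6, Epha8 and Epha10, each with 1 probe set, were above background in 0 of 3. Epha4, which binds B-class ephrins as well as A-class ones, read 8926, 6834 and 12638, and replicate 2 was the lowest. Epha3 had the smallest SD of the 6 (0.17, with 4624, 5846 and 6235) and Epha5 the largest (0.62, with 3194, 2343 and 1438). Thus 11 of 14 A-class genes and 7 of 7 B-class genes measured were above background, beside 60.6% of all genes, and the difference between the classes was not tested. With background at the 99th percentile, 5 EphA receptors, 5 ephrin-A ligands and 6 B-class genes passed.

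Proteins that carry the forward signal from the receptor, that is adaptors, Src and Abl family kinases and exchange factors of small GTPases, had 20 of 21 genes above background in 3 of 3 samples. The exception, named after its value was seen, was Ngef (ephexin-1), which was above background in 2. The adaptor Crk had the smallest SD (0.11), with signals of 23080, 26695 and 27931. The exchange factor Kalrn had the largest (1.23), with 827, 470 and 2332, and replicate 3 was well above both others. This was read on the brightest of its 8 probe sets, of which 3 were above background in 3 of 3 samples. The median SD of the 20 was 0.25, and 14 lay below the median of all genes.

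Partners of the ephrin-B tail, such as PDZ scaffold proteins, had 10 of 11 genes above background in 3 of 3 samples. The exception, Grip2, again named after its value was seen, was above background in 2. Rgs3, which binds the tail and turns off G protein signals, had the smallest SD (0.09), with 2167, 2476 and 2049. The transcription factor Stat3 had the largest (0.77), with 1261, 593 and 529, replicate 1 being the highest. These values are from the brightest of its 4 probe sets, of which 2 were above background in 3 of 3 samples.

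Ephrins and Eph receptors are also cut from the membrane by metalloproteases, after which the γ-secretase complex releases their tail. All 9 genes measured of this list were above background in 3 of 3 samples. The rhomboid protease Rhbdl2 had the smallest SD (0.11), with 325, 372 and 301. The γ-secretase subunit Ncstn had the largest (0.45), with 208, 320 and 411. The median SD was 0.30 in this list and 0.38 for the tail partners, beside 0.33 over all genes.

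**Figure D3:**
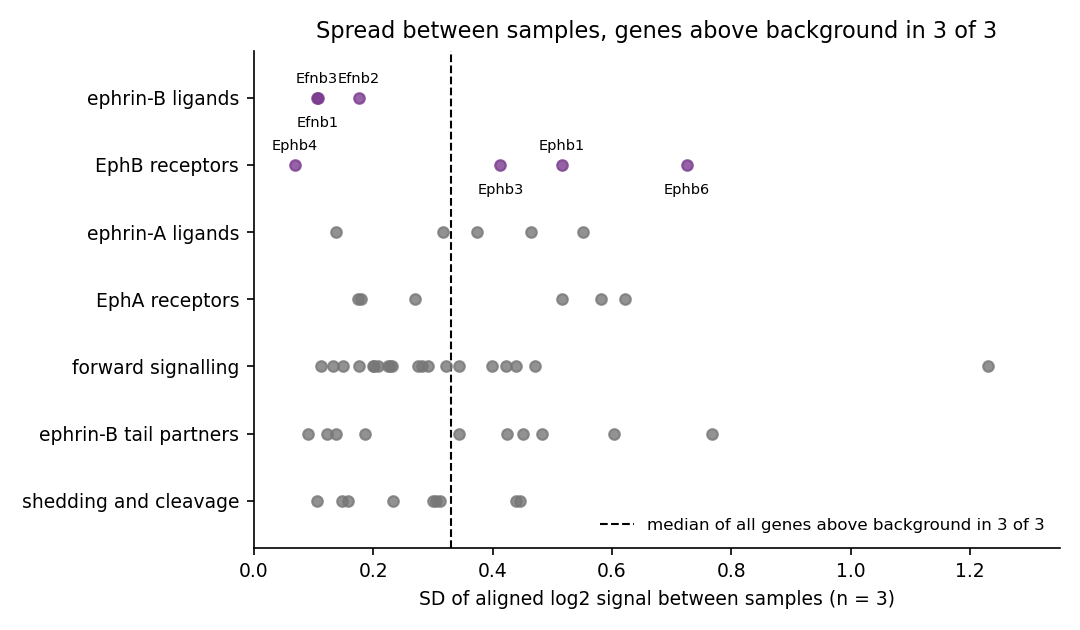
SD of the aligned log2 signal between samples (n = 3) for each gene above background in 3 of 3 samples, in rows by role. Each gene is 1 point, read on its brightest probe set, and a dashed line marks the median of all such genes (0.33). The 3 ephrin-B ligands and Ephb4 lie left of the line (Efnb2 lies right of it with quantile normalization), and Ephb3, Ephb1 and Ephb6 lie right of it, at 0.41, 0.52 and 0.73 (Ephb3 lies left of its line with alignment on all probe sets).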

How the data were processed

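Deposited values are linear intensities, 1 for each probe set on each array, which the authors obtained from GCOS, per the submitters' processing notes. The algorithm and settings behind them were not given in the sources used here. Per the labels, total RNA was amplified in 2 rounds and labelled with biotin. After trimming 2% at each end, every sample's mean intensity was 1500.0, so samples had been scaled before deposit. Of 45101 probe sets, 64 controls were set aside; a platform annotation gave 34945 exactly 1 symbol, 932 several and 9160 none, and 34741 matched RefSeq (GRCm38.p6) by Entrez identifier with 0 symbols changed. A gene was represented by its brightest probe set. Intensities under 1 were set to 1, log2 transformed and aligned on the median of probe sets above background in 3 of 3 samples (medians differed by 0.23); signals are printed as deposited. The landmark contrast used limma 3.58.1 (R 4.3.3, lmFit and eBayes, two-sided) on probe sets that passed background in any sample. A run on simulated data checked only the size of planted differences, not which probe sets were called. Other steps used Python 3.11.15. At most 10 probe sets held equal values in any pair of samples, so each counted as its own library. The number of arrays limits precision. Members, gene lists and tests were chosen with earlier results of these data known. The text names every member, and from each pathway list the genes above background in no sample, those with the smallest and largest SD, and Epha4 and Efna5. Alternatives covered background, alignment, floor, filter, variance trend, probe set choice and leaving out each sample. Protein comparisons of the members were not made.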

Additional observations from a re-analysis of the deposited data

How the results depend on the processing

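Over the alternatives for background, probe set choice and left-out samples, the count of member genes above background in 3 of 3 samples stayed between 6 and 7, the lower value with background at the 99th percentile or when every probe set of a gene had to pass. It was 7 with each replicate left out, as it had to be. All 7 measured genes already passed in every sample, and leaving out a sample only eases the rule. The median log2 SD of the members ran from 0.10 to 0.15 when 1 replicate was left out. Without a filter 5 member probe sets were over 2-fold apart in some pair instead of 3, and 2 instead of 1 between replicates 3 and 1, because probe sets below background then entered. Between replicates 3 and 2 the count was 1 with alignment on all probe sets or with quantile normalization. Alignment on all probe sets shifted the median difference of detected probe sets to -0.63 between replicates 2 and 1, and the share of over 2-fold differences that were higher in replicate 2 went from 65.8% to 22.4% (83.5% with no alignment). In the landmark contrast limma called 86 probe sets with that alignment and 1 when probe sets had to pass background in every sample, instead of 0, and 0 of them were members. There Ephb1 turned from 0.044 to -0.040. Left-out replicates gave differences of -1.01 to 0.78 for Efnb1 1418285_at, -0.036 to 0.21 for Efnb2 1419638_at, -0.21 to 0.14 for Efnb2 1419639_at, -1.54 to 0.40 for Efnb2 1449549_at, -0.47 to 0.56 for Ephb1, -0.32 to 0.50 for Ephb3 and -0.11 to 0.018 for Ephb4, so these have no settled direction; the cause was not tested. No paired analysis was possible because there is 1 group.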
